A study of Homo sapiens with 6 samples.

Results

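The genes described here are 37 genes of the integrated stress response and the unfolded protein response, listed by symbol for their known roles, with earlier results of these data in view. All 37 were found among the 58395 genes of the count files, and all 37 passed the filter on low counts that left 17261 genes for testing. RNA was sequenced from 6 clonal lines of HEK293, an established human embryonic kidney cell line. Lines 2, 8 and 9 overexpressed the control protein GST-3F (glutathione S-transferase), and lines 4, 11 and 12 overexpressed NOCT ∆(2-15)-3F, a nocturnin that lacks residues 2 to 15. Nocturnin acts on the cofactors NADP and NADPH, and both proteins carried the tag written 3F. All 6 lines were grown for 3 days in medium with serum and no stress agent is named, so the values are levels in unstressed culture as far as the labels say. Each library is 1 clone, and nothing in the labels gives a second culture of any clone, so a p-value measures the spread between 3 clones of each kind.

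In the integrated stress response, kinases that sense amino acid shortage, haem shortage or misfolded protein in the endoplasmic reticulum (ER) phosphorylate the translation factor eIF2 alpha. General translation then falls while the transcription factor ATF4 is made, and ATF4 raises genes for amino acid supply, for feedback on the response and for cell death. The unfolded protein response shares the kinase PERK (EIF2AK3) with it and has further arms through IRE1 with XBP1 and through ATF6, which raise ER chaperones and the machinery that removes misfolded protein. Because ATF4 and XBP1 are controlled largely at translation and splicing, total RNA of their own genes is only a partial readout.

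ATF4 and its partners bind a CARE element (C/EBP-ATF response element), and ATF6 and XBP1 bind ER stress response elements. Promoter sequences are shown because these elements are the textbook sites of the 2 arms. RefSeq promoters on GRCh38.p14, from 250 bases before to 50 bases from the start site, were matched to 31 of the 37 genes and searched on both strands for CARE (TGATGNAA), ERSE (CCAAT, any 9 bases, CCACG) and ERSE-II (ATTGG, any 1 base, CCACG), at any listed start of a gene. Matches of different motifs do not overlap in the windows shown. The windows of ASNS at chr7:97872439-97872506 (minus strand), CEBPG at chr19:33374041-33374108 (plus strand) and CHAC1 at chr15:40953232-40953299 (plus strand) hold a CARE alone. So do those of JDP2 at chr14:75427976-75428021 (plus strand), PPP1R15B at chr1:204412007-204412067 (minus strand) and SLC1A5 at chr19:46784874-46784941 (minus strand). HERPUD1 at chr16:56931936-56932065 (plus strand) holds a CARE and then an ERSE-II, and HSPA5 at chr9:125241361-125241439 (minus strand) and XBP1 at chr22:28800573-28800651 (minus strand) hold an ERSE. Each is written 5′ to 3′ on its gene's strand, with the motif in capitals.
ASNS: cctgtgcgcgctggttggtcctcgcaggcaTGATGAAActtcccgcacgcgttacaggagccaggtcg
CEBPG: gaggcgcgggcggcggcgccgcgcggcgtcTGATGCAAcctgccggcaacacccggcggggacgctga
CHAC1: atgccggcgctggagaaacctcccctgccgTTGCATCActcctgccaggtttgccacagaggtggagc
JDP2: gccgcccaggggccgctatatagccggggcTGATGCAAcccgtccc
PPP1R15B: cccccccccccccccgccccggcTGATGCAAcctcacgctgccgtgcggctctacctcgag
SLC1A5: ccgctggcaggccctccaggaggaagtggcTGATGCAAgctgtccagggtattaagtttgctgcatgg
HERPUD1: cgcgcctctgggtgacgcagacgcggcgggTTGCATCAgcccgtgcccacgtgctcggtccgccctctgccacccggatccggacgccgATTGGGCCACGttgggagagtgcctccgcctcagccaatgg
HSPA5: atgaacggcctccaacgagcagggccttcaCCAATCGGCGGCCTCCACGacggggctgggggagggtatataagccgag
XBP1: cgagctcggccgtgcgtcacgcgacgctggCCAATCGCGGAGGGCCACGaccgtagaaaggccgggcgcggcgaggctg
In CHAC1 and HERPUD1 the CARE lies on the opposite strand, so its capitals read as the reverse complement.

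A CARE was found in 9 of the 31 promoters (29%), against 4.46% of 27305 genes with a RefSeq promoter. The other 2 CARE matches, in SLC7A1 and SLC3A2, begin 7 and 37 bases after the start base. An ERSE was found in 2 of the 31 (6.45%, against 0.0916% of all genes) and an ERSE-II in 1 (3.23%, against 0.0696%). A match is only a run of letters in this window and does not show that a factor bound there.

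The libraries had 19729745 to 24422406 gene counts in all. Reads of the GST construct numbered 46 to 88 in the GST lines and 0 or 1 in the NOCT lines (0 counts leave room for up to 3). The NOCT construct had 46 to 82 counts in the NOCT lines and 3 to 7 in the GST lines. The row of the NOCT gene itself was not called (log2 fold change -0.53, edgeR adjusted p = 0.379). Over all genes, chi-square per gene was 7.52 to 19.1 between GST lines and 16.3 to 42.4 between NOCT lines. NOCT line 12 was nearer to GST lines 8 and 9 (19.3 and 18.2) than to NOCT lines 4 and 11 (42.4 and 28.9), so counts are also given without it. Of 5 markers of HEK293, 4 had at least 10 counts in every line, and the list summed to 740 to 1048 CPM in GST lines and 855 to 1503 CPM in NOCT lines, most of it VIM. In PAX2 every NOCT line lay below every GST line (4.39-fold lower, edgeR adjusted p = 0.0567), and NEFM had 137 counts in NOCT line 12 and 4 to 9 elsewhere; their part in the results was not tested. Markers of blood cells and hepatocytes had 0 to 4 counts. Of the fibroblast markers only COL1A1 had at least 10 counts in every line, and that list summed to 10.8 to 12.0 CPM in GST lines and 8.07 to 24.8 CPM in NOCT lines.

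No gene of the 37 passed the test over all genes. edgeR's quasi-likelihood test with Benjamini-Hochberg adjustment called 10 of 17261 genes (0.0579%) at an adjusted p under 0.05 and 0 of the 37. Before adjustment, 13 of the 37 (35.1%) had p under 0.05, 6 higher and 7 lower in NOCT lines, against 13.9% of all genes (7.38% higher and 6.52% lower). The 3 NOCT values did not overlap the 3 GST values in 12 of the 37 (32.4%), 6 above and 6 below. Over all genes the share was 20% (10.5% above and 9.54% below). With spike-in scaling the groups did not overlap in 10 of the 37 (27.0%, against 26.8% of all genes). At an unadjusted p under 0.05 there were 9 with that scaling, against 20.4% of all genes. The median log2 fold change was -0.07 over the 37 and 0.0046 over all genes, with 16 of the 37 higher and 21 lower. With spike-in scaling or TPM, which moved the median of all genes to 0.15 and to 0.07 or 0.08, the split was 23 higher and 14 lower.

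DESeq2, which also gave the authors' deposited table, called a few of these genes. With voom or on either TPM scale, limma called none of the 37. Fitted to the same counts, DESeq2 called 508 genes (2.94%), among them PYCR1, PPP1R15A and SEL1L, and the authors' deposited table called the same 3 among 488 of its 17002 genes with an adjusted p (2.87%). Without NOCT line 12, edgeR called 970 of 17882 genes and again PYCR1, PPP1R15A and SEL1L. The number of these genes with an unadjusted p under 0.05 was 16 without NOCT line 12, 8 without GST line 8, 7 without GST line 9 and 6 without NOCT line 11, where all genes gave 23.2%, 10.4%, 8.31% and 10.6%.

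**Figure D1:**
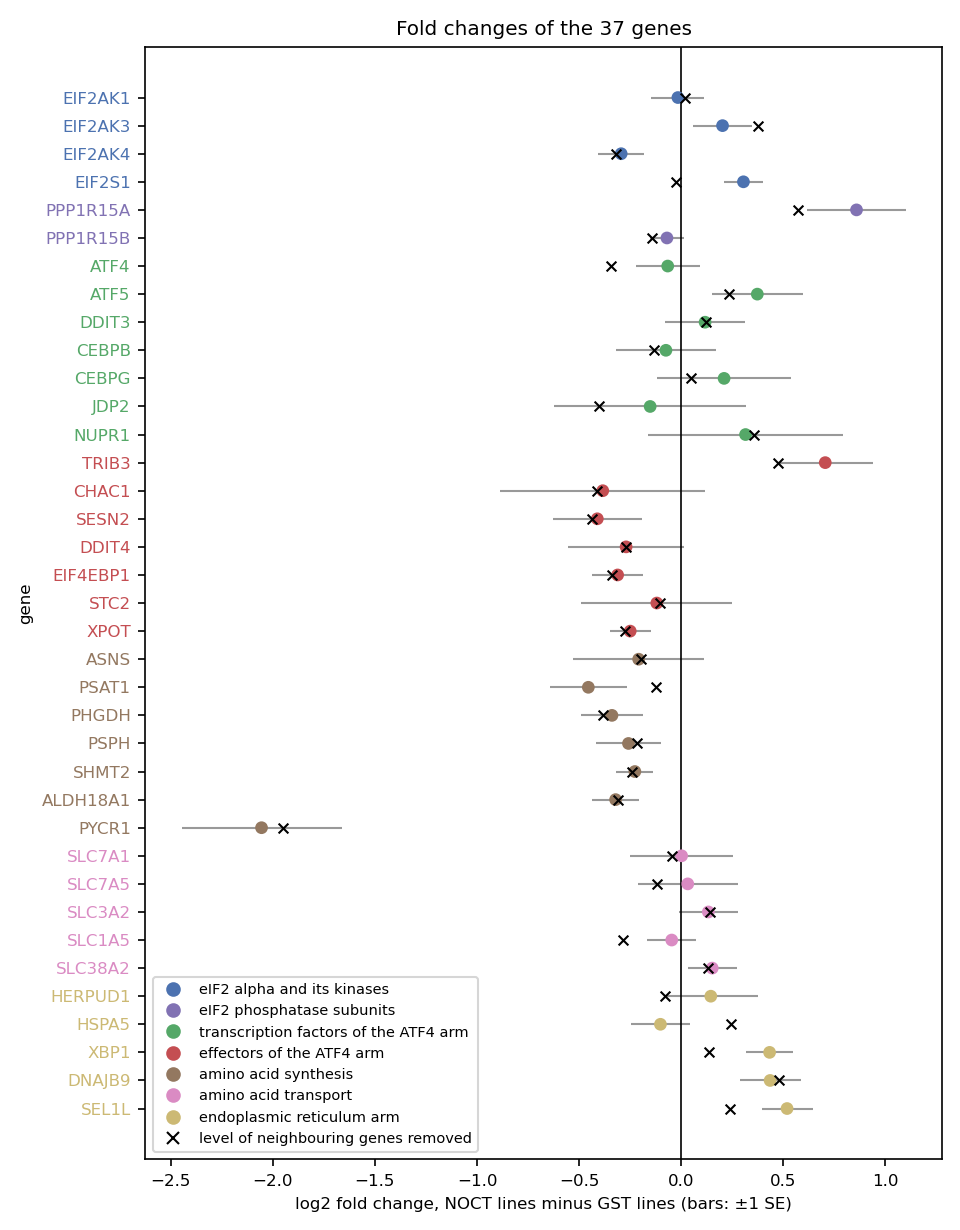
Log2 fold change (NOCT lines minus GST lines) of each of the 37 genes with its standard error (bars), coloured by role; crosses give the value with the level of neighbouring genes removed. PYCR1 is farthest left at -2.06, PPP1R15A and TRIB3 are farthest right at 0.86 and 0.71, and all 7 amino acid synthesis genes lie below 0.

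The most separated gene was PYCR1, which encodes the mitochondrial enzyme of the last step of proline synthesis (ENSG00000183010; chromosome 17, 81932384 to 81942412, minus strand, GRCh38 in GENCODE 29). It stood at 9.07, 15.1 and 13.6 CPM (counts relative to library size, TMM-scaled) in GST lines 2, 8 and 9, and at 4.63, 2.91 and 1.45 CPM in NOCT lines 4, 11 and 12. The groups did not overlap, and NOCT line 12 was the lowest of the 6. The log2 fold change was -2.06 (SE 0.39), which is 4.16-fold lower in NOCT lines, with an adjusted p of 0.116 by edgeR's quasi-likelihood test. The raw counts were 172, 325 and 277 against 118, 65 and 29. In bulk RNA, fewer cells with a transcript and less of it in each cell cannot be told apart. Of its exonic bases, 14.1% are shared on the same strand with MYADML2, which had 0 or 1 counts. In the authors' deposited table, whose fold changes are shrunken toward 0 per its name and so not comparable in size with those fitted here, its log2 fold change was -1.31 with an adjusted p of 2.44e-06.

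The other amino acid synthesis genes lay on the same side with smaller differences. All 7 had a negative log2 fold change, with a median of -0.32, and 4 of the 7 had an unadjusted p under 0.05. The direction of all 7 held under every other scaling and filter run, and without any 1 line except GST line 2, where ASNS turned to 0.14. ALDH18A1, the enzyme of the first steps of proline synthesis, had 151, 174 and 185 CPM in GST lines and 150, 122 and 137 CPM in NOCT lines (log2 fold change -0.32, SE 0.12, edgeR adjusted p = 0.276). NOCT line 4 came within 1 CPM of GST line 2, so the groups did not overlap by a thin margin. SHMT2, the mitochondrial serine hydroxymethyltransferase that feeds one-carbon metabolism, had 178, 165 and 177 against 147, 138 and 159 CPM (log2 fold change -0.23).

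The serine pathway was less cleanly separated. PSAT1, its aminotransferase, had 123, 83.5 and 102 CPM in GST lines and 61.7, 94.5 and 68.8 CPM in NOCT lines, a log2 fold change of -0.45 (SE 0.19) with overlapping groups. PHGDH, the first enzyme of that pathway, had 107, 79.2 and 92.7 against 62.4, 72.7 and 85.7 CPM (log2 fold change -0.34, unadjusted p = 0.0534). PSPH, the phosphatase that ends it, had a log2 fold change of -0.26. For PSAT1 and PHGDH the highest line was GST line 2 and the lowest was NOCT line 4.

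ASNS, asparagine synthetase and a textbook ATF4 target, had few assigned reads in all 6 lines. It had 4.01, 2.04 and 2.31 CPM in GST lines and 2.08, 2.24 and 2.91 CPM in NOCT lines, from 44 to 76 counts a library. GST line 2 was the only line above 3 CPM. Its log2 fold change was -0.21 (SE 0.32). Of its exonic bases, 44.6% are shared on the same strand with AC079781.5, which had 12 to 26 counts a library, so part of its reads could not be assigned to either gene.

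Among the sensors, EIF2S1, which encodes eIF2 alpha itself, had 131, 112 and 133 CPM in GST lines and 159, 158 and 147 CPM in NOCT lines. All 3 NOCT lines stood above all 3 GST lines (log2 fold change 0.30, SE 0.10, edgeR adjusted p = 0.24). EIF2AK4, the amino acid sensing kinase GCN2, had 74.0, 84.4 and 79.7 CPM against 56.8, 65.9 and 71.6 CPM, with every NOCT line below every GST line (log2 fold change -0.29, SE 0.11). The haem-regulated kinase EIF2AK1 and the ER kinase EIF2AK3 had log2 fold changes of -0.02 and 0.20.

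PPP1R15A encodes GADD34, the stress-induced subunit that directs a phosphatase to eIF2 alpha and so ends the response (chromosome 19, 48872392 to 48876057, plus strand). It had 43.8, 32.6 and 44.9 CPM in GST lines and 92.4, 80.2 and 47.1 CPM in NOCT lines. NOCT lines 4 and 11 were high, while NOCT line 12 stood just above the highest GST line. The log2 fold change was 0.86 (SE 0.24, edgeR adjusted p = 0.205), and 1.09 without NOCT line 12 (edgeR adjusted p = 0.00772). Without NOCT line 4 the log2 fold change was 0.65 and the gene was not called. The authors' deposited table gave 0.68 with an adjusted p of 0.0179. PPP1R15B, the constitutive subunit with the CARE shown earlier, had the smallest spread between lines of all 37 (SD 0.056 on the log2 scale) and a log2 fold change of -0.07.

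The transcription factors did not separate the groups, and 0 of the 7 had an unadjusted p under 0.05. ATF4 had the highest level per transcript length of the 37, at 340 ± 47.7 TPM in GST lines and 346 ± 44.1 TPM in NOCT lines (SD, n = 3 each). In CPM it ran 353, 247 and 323 against 296, 250 and 335, with the groups fully intermingled (log2 fold change -0.07, SE 0.16, edgeR adjusted p = 0.878). DDIT3, the pro-death factor CHOP, was low at 5.22, 7.0 and 6.58 CPM against 6.99, 7.39 and 6.02 CPM (log2 fold change 0.12, SE 0.20). Of DDIT3's exonic bases, 8.0% are shared on the same strand with AC022506.1, which had 0 counts. Another 31.6% are shared on the opposite strand with MARS and MBD6, and any effect of this overlap on its level was not tested. ATF5, a factor translated under stress much like ATF4, had a log2 fold change of 0.37 and the stress-induced regulator NUPR1 one of 0.32, the latter from the lowest level of the 37 (0.350 ± 0.167 TPM in GST lines). CEBPB, a partner of ATF4, had -0.07.

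CEBPG, another partner of ATF4, had high and low lines in both groups. It had 175, 85.4 and 125 CPM in GST lines and 180, 181 and 85.2 CPM in NOCT lines (log2 fold change 0.21, SE 0.33). JDP2, an AP-1 family repressor, had 5.32, 1.34 and 2.11 CPM in GST lines and 3.02, 2.37 and 2.46 CPM in NOCT lines. GST line 2 stood alone at the top, and the log2 fold change of -0.15 became 0.60 without it.

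TRIB3, a pseudokinase induced through ATF4 and CHOP that damps the response, had 26.1, 14.8 and 18.8 CPM in GST lines and 30.9, 40.2 and 26.1 CPM in NOCT lines. NOCT line 12 exceeded GST line 2 only in the second decimal, and the log2 fold change was 0.71 (SE 0.23, edgeR adjusted p = 0.252). It was the only effector of 7 with a positive value. The translation repressor EIF4EBP1 had 35.2, 32.3 and 38.1 CPM against 29.9, 24.7 and 30.5 CPM (log2 fold change -0.31, SE 0.13). The tRNA exporter XPOT had 314, 313 and 293 CPM against 233, 255 and 287 CPM (log2 fold change -0.25, SE 0.10). In EIF4EBP1 and XPOT every NOCT line lay below every GST line.

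The remaining effectors had overlapping groups. CHAC1, a glutathione-degrading enzyme, had 10.3, 2.69 and 3.14 CPM in GST lines and 3.10, 4.26 and 5.01 CPM in NOCT lines. STC2, a secreted glycoprotein, had 53.7, 17.2 and 24.3 CPM against 26.5, 27.0 and 34.0 CPM. Both were highest in GST line 2 and lowest in GST line 8, and their log2 fold changes of -0.38 and -0.12 both became 0.49 without GST line 2. DDIT4, an inhibitor of mTORC1, had 19.9, 13.8 and 15.5 CPM against 10.2, 10.4 and 20.2 CPM, with NOCT line 12 apart from the other NOCT lines (log2 fold change -0.27). SESN2, also an inhibitor of mTORC1, had a log2 fold change of -0.41 with overlapping groups.

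The amino acid transporters showed the smallest differences. Their log2 fold changes ran from -0.05 for the glutamine transporter SLC1A5 to 0.15 for SLC38A2, with 0.002 for the cationic amino acid transporter SLC7A1, and 0.03 and 0.13 for SLC7A5 and SLC3A2, the light and heavy chains of 1 exchanger. None of the 5 had an unadjusted p under 0.05, and in all 5 the groups overlapped.

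In the ER arm, SEL1L and XBP1 were higher in every NOCT line and DNAJB9 likewise. SEL1L, the adaptor of the ER-associated degradation ligase (chromosome 14, 81471549 to 81533861, minus strand), had 82.7, 62.7 and 67.3 CPM in GST lines and 107, 105 and 92.1 CPM in NOCT lines. Its log2 fold change was 0.52 (SE 0.12, edgeR adjusted p = 0.166), and the authors' deposited table gave 0.47 with an adjusted p of 0.0279. XBP1, with the ERSE shown earlier, had 47.5, 38.6 and 40.2 CPM against 58.4, 51.7 and 60.3 CPM (log2 fold change 0.43, SE 0.12); these counts do not separate its spliced form. DNAJB9, an ER co-chaperone, had 10.7, 10.8 and 11.3 CPM against 12.8, 16.3 and 15.4 CPM (log2 fold change 0.44, SE 0.15). HSPA5, the main ER chaperone BiP, had overlapping groups at 95.1, 65.1 and 76.4 CPM against 69.1, 79.1 and 72.2 CPM (log2 fold change -0.10, SE 0.14, and 0.045 with spike-in scaling). HERPUD1, which takes part in ER-associated degradation, had 36.7, 18.5 and 27.0 CPM against 29.2, 27.5 and 34.1 CPM.

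**Figure D2:**
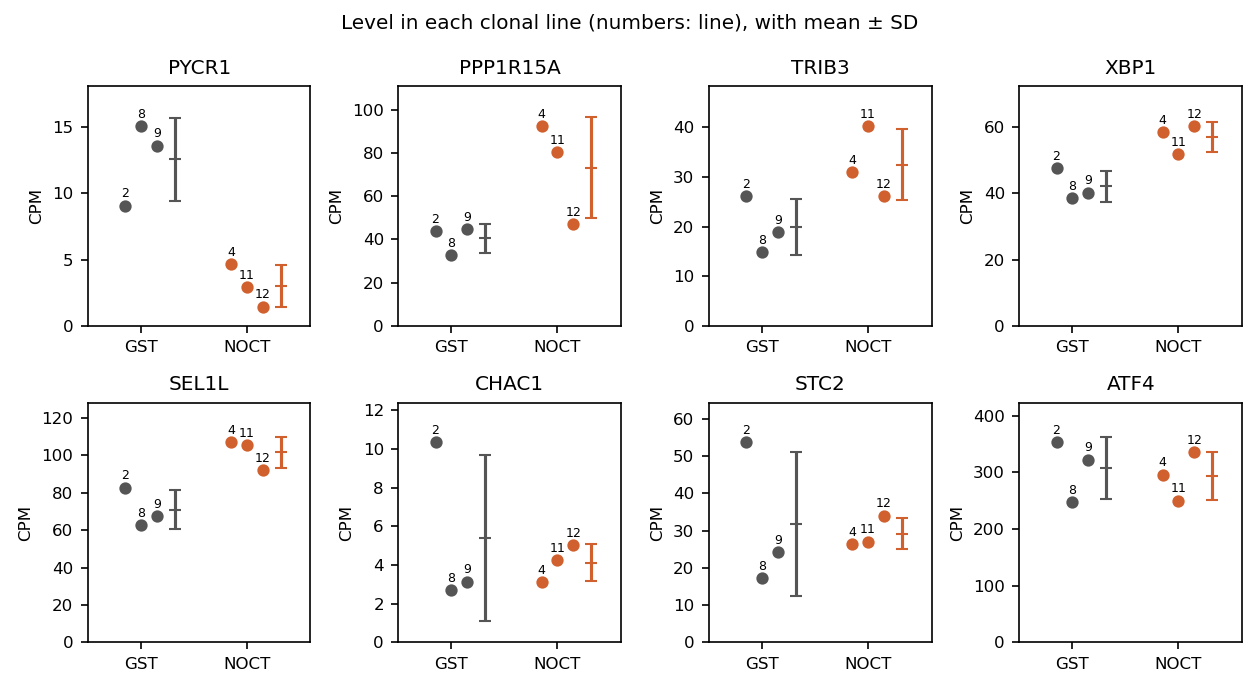
Level in CPM (vertical axis, linear from 0) of 8 of the genes in each clonal line, numbered by line, with the mean ± SD of each group (n = 3) beside the points. PYCR1 and SEL1L separate the groups, ATF4 does not, and GST line 2 stands apart at 10.3 CPM for CHAC1 and 53.7 CPM for STC2.

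**Figure D3:**
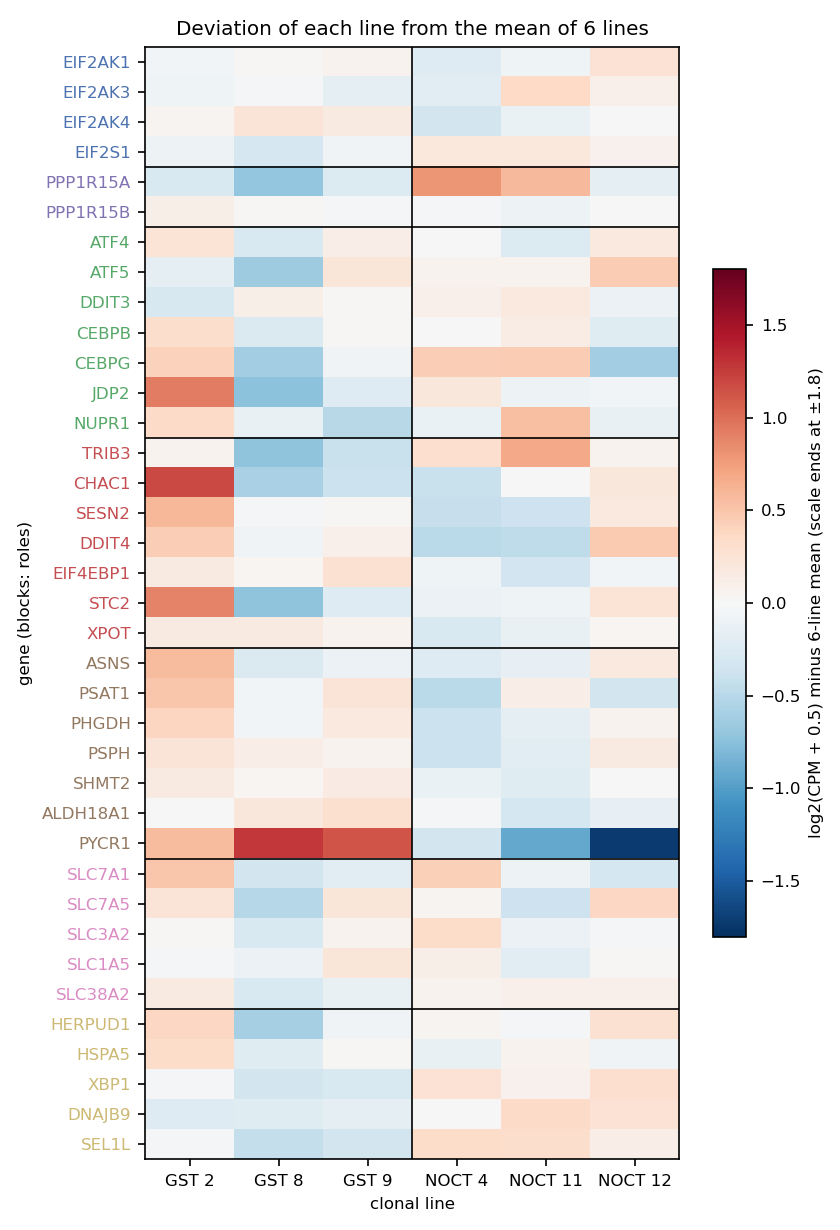
Log2 deviation of each gene (rows, grouped by role) from its mean over the 6 lines (columns), on a colour scale that ends at plus and minus 1.8. GST line 2 holds the highest value of 17 genes and GST line 8 the lowest of 18.

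The plot of deviations by line shows differences between clones of the same group. GST line 2 had the highest of the 6 values for 17 of the 37 genes (45.9%), against 17.5% of all genes tested. GST line 8 had the lowest for 18 of the 37 (48.6%), against 15.6% of all genes. GST line 2 exceeded both other GST lines in 24 of the 37 (64.9%, against 39.3% of all genes), including 6 of the 7 effectors and 5 of the 7 transcription factors. It did so in 5 of the 7 amino acid synthesis genes, 3 of the 5 transporters and 4 of the 5 ER arm genes. Among the phosphatase subunits it did so in 1 of 2, and among eIF2 alpha and its kinases in 0 of 4. NOCT line 12 exceeded both other NOCT lines in 19 of the 37 (51.4%, against 38.7% of all genes), including 6 of the 7 effectors. It lay below both in 10 of the 37 (27.0%, against 38.5% of all genes). Of the 7 transcription factors it was above both in 2 and below both in 4. Leaving out GST line 2 moved the median log2 fold change of the 37 from -0.07 to 0.14 and their split from 16 higher and 21 lower to 22 higher and 15 lower.

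The pooled SD between lines of a group, on the log2(CPM + 0.5) scale, was largest for CHAC1 at 0.72, which is at the 97.5th percentile of all genes tested. JDP2 followed at 0.61, STC2 at 0.60, CEBPG at 0.57, PYCR1 at 0.56 and DDIT4 at 0.42. The median over the 37 was 0.223, against 0.206 over all genes, and over the effectors it was 0.358. Of these 6, all but PYCR1 are ATF4-arm transcription factors or effectors, while the spread of the whole set was close to that of other genes.

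Ordered by length-scaled level in GST lines, SLC1A5 (138 ± 16.3 TPM), PSAT1 (131 ± 20.01 TPM) and ALDH18A1 (126 ± 16.3 TPM) followed ATF4 and lay within each other's SD. At the low end ASNS had 1.73 ± 0.598 TPM and JDP2 1.29 ± 0.886 TPM, which also lay within each other's SD (n = 3 lines each). The ASNS value rests only on reads that could be assigned, since 44.6% of its exonic bases are shared with AC079781.5. In this unit a mitochondrial ribosomal RNA took 43.0% to 47.7% of the total, which bears on the TPM of every gene in that line.

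Each gene was also set against its neighbours on the chromosome, as the median deviation of up to 50 tested genes on each side with the gene itself left out. CEBPG tracked them closely. Its own log2 deviations in GST lines 2, 8 and 9 were 0.41, -0.62 and -0.07, and its neighbours' were 0.34, -0.48 and -0.05. In NOCT lines 4, 11 and 12 they were 0.45, 0.46 and -0.62, and the neighbours' 0.46, 0.44 and -0.68. With the neighbour level removed, 14% of the SD of CEBPG between lines was left, against 103% for CHAC1, 107% for STC2 and 100% for PYCR1.

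**Figure D4:**
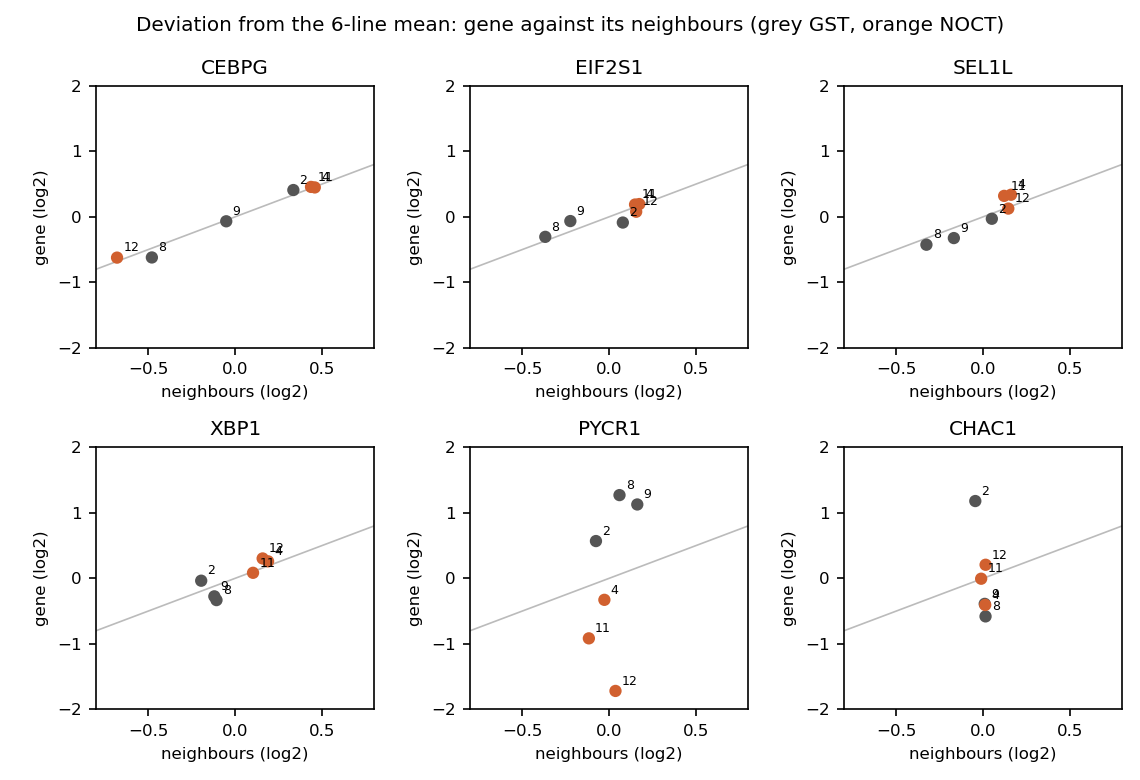
Log2 deviation of a gene (vertical) against that of its chromosome neighbours (horizontal) in each of the 6 lines, with the diagonal of equal deviation. CEBPG lies along the diagonal, while PYCR1 and CHAC1 vary with neighbours near 0.

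EIF2S1 and SEL1L both lie on chromosome 14, and their neighbours were low in GST line 8 (-0.37 and -0.33) and higher in the NOCT lines (0.15 to 0.17 and 0.12 to 0.16). With an offset for the neighbour level, the log2 fold change of SEL1L was 0.24 and that of EIF2S1 was -0.03. The same offset left PYCR1 at -1.95 (edgeR adjusted p = 0.0957), PPP1R15A at 0.57, DNAJB9 at 0.48, TRIB3 at 0.48, XBP1 at 0.14 and PSAT1 at -0.12. With it ATF4 stood at -0.34, against -0.07 without it, and was not called. The neighbours of ATF4 were at -0.22, -0.095 and -0.083 in GST lines 2, 8 and 9. In NOCT lines 4, 11 and 12 they were at 0.14, 0.072 and 0.18. Of the 13 genes with an unadjusted p under 0.05, 9 kept it under the offset. EIF2S1, PSAT1, TRIB3 and XBP1 did not, and EIF2AK3, PHGDH and PPP1R15B were added. Copy number was not tested here.

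Beyond these 37, a list of 68 other genes of both responses was counted in the same fit, and all 68 were tested. edgeR called 0 of them, and 22 (32.4%) had an unadjusted p under 0.05, 17 higher and 5 lower, against 13.9% of all genes (7.38% higher and 6.52% lower). Of the 15 ER chaperones and folding enzymes, 14 had a positive log2 fold change, with a median of 0.25, and 8 had an unadjusted p under 0.05, all higher. In 11 of the 15 every NOCT line lay above every GST line (10.5% of all genes did so). The list of ER-associated degradation and translocation genes had 11 of 14 positive, with a median of 0.15. The further ATF4 targets had 2 of 9 positive (median -0.19) and the aminoacyl-tRNA synthetases 5 of 12 (median -0.03). The UPR sensors and proteases had 4 of 5 positive and the eIF2B, eIF2 and other regulators 7 of 13.

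The neighbour offset changed these lists to different degrees. Under it 14.5% of all genes had an unadjusted p under 0.05 (7.53% higher and 7% lower). All 15 ER chaperones and folding enzymes were positive, with a median of 0.24, and 11 had an unadjusted p under 0.05, all higher. Among the ER-associated degradation and translocation genes the number higher at that p went from 6 to 3, with a median of 0.16. The median of the UPR sensors and proteases went from 0.17 to 0.06, and that of the eIF2B, eIF2 and other regulators from 0.05 to -0.03, with 5 of 13 positive. The synthetases had 3 of 12 positive and the further ATF4 targets again 2 of 9.

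The 6 with the smallest p-values came from both responses. ERO1A, the oxidase that recharges protein disulphide isomerase, had 131, 106 and 110 CPM in GST lines and 176, 170 and 150 CPM in NOCT lines (log2 fold change 0.51, SE 0.11, edgeR adjusted p = 0.145). CRELD2, an ER-stress-induced folding factor, had 17.6, 16.9 and 19.7 CPM against 27.3, 24.5 and 36.5 CPM (log2 fold change 0.70). CALR, the lectin chaperone calreticulin, had 559, 544 and 594 CPM against 861, 694 and 703 CPM (log2 fold change 0.41). SELENOS, a selenoprotein of ER-associated degradation, had 35.8, 33.2 and 36.3 CPM against 51.1, 44.2 and 48.8 CPM (log2 fold change 0.45). In all 4 every NOCT line stood above every GST line.

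On the other side, IARS1, the isoleucyl-tRNA synthetase, had 529, 532 and 496 CPM in GST lines and 300, 412 and 351 CPM in NOCT lines (log2 fold change -0.55, SE 0.12, edgeR adjusted p = 0.155). With the neighbour offset it was -0.19, and that of ERO1A was 0.18. SLC7A11, the cystine transporter and an ATF4 target, had 101, 53.1 and 61.2 CPM against 15.9, 21.9 and 41.2 CPM (log2 fold change -1.45). In the authors' deposited table, 4 of the 68 were called, against 2.87% of its 17002 genes with an adjusted p. They were ERO1A (DESeq2 adjusted p = 0.0133), CRELD2 (0.0165) and SELENOS (0.0442) higher and IARS1 (0.00983) lower. An ERSE was found in 7 of the 58 promoters matched to this list (12.1%) and a CARE in 8 (13.8%).

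**Figure D5:**
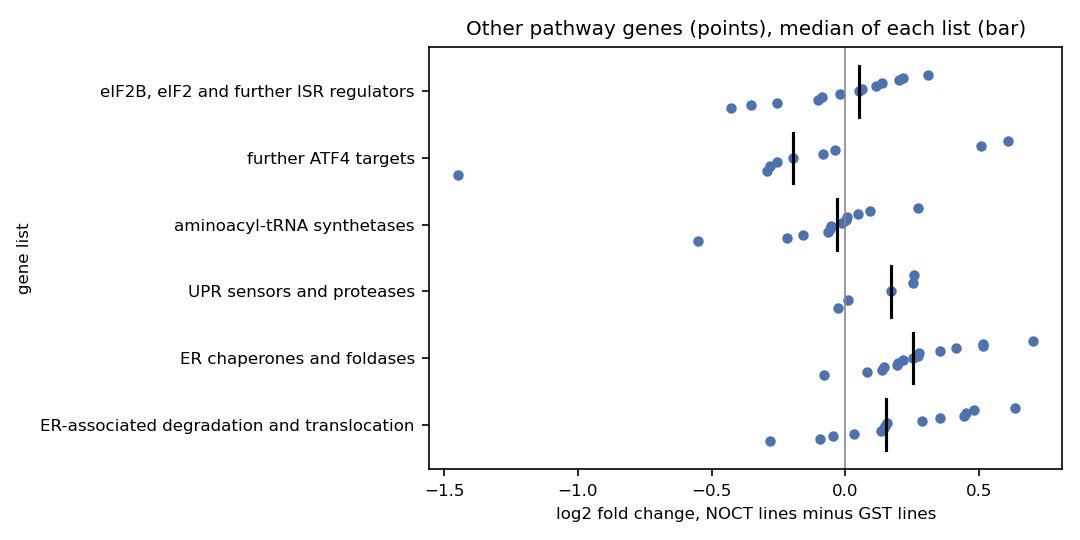
Log2 fold changes (NOCT lines minus GST lines, log2 axis) of the 68 other pathway genes, 1 point per gene, by list, with a bar at each median. All ER chaperones and folding enzymes but 1 lie to the right of 0, while 7 of the 9 further ATF4 targets lie to its left.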

How the data were processed

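RNA-seq counts of 6 clonal lines were used as deposited. Per the submitters' processing notes, the tools include STAR 2.5.2b, HTSeq 0.6.1p1 and DESeq2 1.16.1, with genome build GRCh38; the annotation release is not given in the sources used here. The authors deposited whole read counts per gene and line, a table of TPM, and a DESeq2 table with a mean normalised count (a signal), log2 fold changes (shrunken, per its name), a test statistic (a score) and p-values. Its direction was taken from the construct rows. The 5 rows that name no feature were left out: reads without a feature were 26.5% to 30.6%, ambiguous reads 2.02% to 2.41% and reads not unique 13.3% to 14.6%.

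The 2 groups were compared with edgeR 4.0.16 in R 4.3.3 (filterByExpr, TMM, quasi-likelihood test, Benjamini-Hochberg over 17261 genes, threshold 0.05). The SE was derived from the F statistic. The biological coefficient of variation was 19.7%. No pair of libraries agreed within sampling noise (chi-square per gene of at least 7.52). The code was tested on simulated data. Alternatives were RLE and spike-in scaling, other filters, DESeq2 1.42.0, limma 3.58.1 (voom, and log2(TPM + 1) and log2(TPM + 0.1)), a neighbour offset, and leaving out each line. Positions came from GENCODE 29.

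The 37 genes and all lists were chosen with earlier results of these data known. Values in every line are given for the hubs ATF4, DDIT3, TRIB3, CHAC1, ASNS, PPP1R15A, HSPA5 and XBP1, for genes with an unadjusted p under 0.05 or called in the authors' table, and for the 6 with the largest SD. Of the other pathway genes, the 6 with the smallest p are named. PHGDH and HERPUD1 were added after their values were seen.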

Additional observations from a re-analysis of the deposited data

How the results depend on the processing

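No paired analysis was possible because the GST lines (2, 8, 9) and the NOCT lines (4, 11, 12) share no numbers. Depth limits genes of few counts such as NUPR1, with 8 to 30 counts a library. Spike-in scaling moved the median of all genes to 0.15, and TPM moved it to 0.07 or 0.08; under these the 37 genes were 23 higher and 14 lower. The number of genes called was 22 with spike-in scaling, 16 with voom and 37 with the neighbour offset. It was 888 of 34539 with no filter and 508 of 17261 (2.94%) with DESeq2. With a line left out it was 0 to 970. It was 0 without GST line 9 (edgeR, with 1488 at an unadjusted p under 0.05; DESeq2 was not run without a line). Of the 37, 4 were called with no filter (TRIB3 with an edgeR adjusted p of 0.0186) and 3 with DESeq2, and 0 to 3 with a line left out. None of the 37 was called with RLE or spike-in scaling, a filter at a mean of 1 CPM, limma or the neighbour offset. Of the 68 other genes, 6 were called with no filter, 6 with DESeq2 and 0 to 6 with a line left out. With an unadjusted p under 0.05 there were 8 of the 37 by limma on either TPM scale, against 14.19% and 13.96% of all genes. At that p, spike-in scaling gave 9 of the 37, against 20.4% of all genes. Leaving out a line gave 6 to 16 of the 37, against 8.31% to 23.2% of all genes. The groups did not overlap in 12 to 19 of the 37 with a line left out, when 25.9% to 41.6% of all genes did not. The 19 (51.4%) came without NOCT line 12, where the share of all genes was 41.6%. With spike-in scaling the number was 10 of the 37 (27.0%, against 26.8% of all genes). With the neighbour offset it was 10 (27.0%, against 19.7%), and on either TPM scale 11 (29.7%, against 19.9%). The median of the 37 ranged from -0.19 to 0.14 with a line left out. That of the 68 was 0.25 with spike-in scaling, 0.19 on both TPM scales, 0.067 with the neighbour offset and 0.049 to 0.13 with a line left out.

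The log2 fold changes of 18 genes changed sign under some alternative. With spike-in scaling the values were 0.13 for EIF2AK1, 0.076 for PPP1R15B, 0.077 for ATF4, 0.073 for CEBPB, 0.017 for STC2, 0.10 for SLC1A5 and 0.045 for HSPA5. On log2(TPM + 1) and log2(TPM + 0.1) they were 0.056 and 0.057 for EIF2AK1, 0.017 and 0.017 for PPP1R15B, 0.026 and 0.026 for ATF4, 0.020 and 0.023 for CEBPB, 0.038 and 0.13 for JDP2, 0.11 and 0.12 for STC2, and 0.042 and 0.042 for SLC1A5. With voom JDP2 was 0.10 and STC2 0.052. With the neighbour offset the values were 0.019 for EIF2AK1, -0.028 for EIF2S1, -0.043 for SLC7A1, -0.12 for SLC7A5, -0.080 for HERPUD1 and 0.24 for HSPA5. SLC7A1 was -0.0035 with RLE, -0.0054 with no filter and -0.0043 with DESeq2. With a line left out the ranges were -0.17 to 0.081 for EIF2AK1, -0.21 to 0.042 for ATF4, -0.00015 to 0.19 for DDIT3, -0.23 to 0.10 for CEBPB, -0.024 to 0.49 for CEBPG, -0.51 to 0.60 for JDP2, -0.11 to 0.76 for NUPR1, -0.72 to 0.49 for CHAC1, -0.43 to 0.49 for STC2, -0.40 to 0.14 for ASNS, -0.24 to 0.30 for SLC7A1, -0.19 to 0.20 for SLC7A5, -0.020 to 0.21 for SLC3A2, -0.12 to 0.057 for SLC1A5, -0.083 to 0.41 for HERPUD1 and -0.23 to 0.052 for HSPA5. The cause was not tested. Of the values of single genes under these alternatives, 56 changed sign, 24 became calls and 564 kept direction and call.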
